A study of Homo sapiens with 12 samples.

Results

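The mitochondrial genome encodes 37 genes: 13 mRNAs, 2 ribosomal RNAs and 22 transfer RNAs. All 37 were found among the 61860 genes of the deposited table, by the rule that their symbol starts with MT- and that they lie on chrM. They were followed in 12 RNA-seq libraries from 2 human Flp-In T-REx 293 lines, which derive from the embryonic kidney line HEK293. In both lines, doxycycline at 1 µg/ml for 6 days induced chained miRNAs against endogenous PGC-1α together with an miRNA-resistant, FLAG-tagged PGC-1α from a transgene at the single FRT site. The transgene encoded full-length PGC-1α in WT-res and PGC-1α without its arginine/serine-rich (RS) domain in ΔRS-res. Whole-cell and cytoplasmic RNA were sequenced with 3 replicates per line and fraction, each replicate from 1 of 3 consecutive passages, so that p-values measure the spread between passages of 1 line each. No line without doxycycline or without the knockdown cassette was analysed here. The cytoplasmic RNA came from the supernatant of a hypotonic lysate after stepwise centrifugation, and ribosomal RNA of both the cytosol and mitochondria was depleted from every library.

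Human mitochondrial DNA is a compact circle whose heavy and light strands are each transcribed by POLRMT into long polycistronic RNAs. Transfer RNAs punctuate these transcripts, and their excision releases mRNAs. Most of these mRNAs, but not all, have almost no untranslated bases and receive short poly(A) tails inside the organelle. The mRNAs encode core subunits of the respiratory chain and of ATP synthase and are translated by mitochondrial ribosomes, so they never pass through the nuclear pore. PGC-1α is a nuclear coactivator known for promoting mitochondrial biogenesis through nuclear genes such as TFAM. Doxycycline also inhibits mitochondrial ribosomes, and it was present in every group compared here.

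The libraries held 90333190 to 144628005 expected counts each. PPARGC1A, the gene of PGC-1α, whose counts include the transgene, stood at 487 to 682 CPM (counts scaled to a common library size) in the 6 WT-res libraries and at 296 to 486 CPM in the 6 ΔRS-res libraries. The whole-cell library labelled WT-res replicate 3 went against its label at genes that separate the lines. DDX19B stood there at 0.204 CPM, against 12.1 to 15.2 CPM in the other WT-res libraries and 0.215 to 0.352 CPM in ΔRS-res. SDHA stood there at 328 CPM, against 68.1 to 77.2 CPM in the other WT-res libraries and 326 to 382 CPM in ΔRS-res. Comparisons of the mitochondrial mRNAs between the lines in whole-cell RNA, and between fractions in WT-res, are therefore given with and without this library. Other whole-cell values, such as levels per length, include it unless stated. Of 6 markers expected in HEK293 cells, VIM and NEFL were high (760 to 1056 and 183 to 372 CPM), INA reached 51.3 to 92.4 CPM, and NEFM, PAX2 and LHX1 stayed under 6 CPM. Of 4 markers of other cell types, PTPRC, ALB and CDH5 were at or under 0.117 CPM, and the fibroblast marker COL1A1 stood at 2.98 to 6.64 CPM.

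The annotated ends of the mRNA genes show how tightly the genome is packed. On GRCh38, read 5′ to 3′ on the coding strand with the letters of the stop in capitals, 7 mRNAs carry a whole stop codon and 6 end in T or TA, which the poly(A) tail completes to a stop. The ends of the 4 mRNAs that the results turn on, and of MT-ND1 as the single TA case, are shown because they include both kinds.
MT-CO1 (chrM:5904-7445, plus strand): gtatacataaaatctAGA
MT-CO3 (chrM:9207-9990, plus strand): tattgatgagggtctT
MT-ND4 (chrM:10760-12137, plus strand): accgggttttcctctT
MT-ND6 (chrM:14149-14673, minus strand): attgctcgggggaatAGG
MT-ND1 (chrM:3307-4262, plus strand): attccccctcaaaccTA
Of the 13 mRNAs, MT-ND6 is the only one read from the minus strand of this reference.

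A pair of mRNAs are bicistronic, with overlapping reading frames, and reads from the overlap belong to both genes. They are shown because the fraction results of the 2 genes of each unit sat next to each other. The overlap is in capitals.
MT-ND4L and MT-ND4 (overlap of 7 bases, shown as chrM:10751-10775, plus strand): cctactccaATGCTAAaactaatcg
MT-ATP8 and MT-ATP6 (overlap of 46 bases, shown as chrM:8518-8581, plus strand): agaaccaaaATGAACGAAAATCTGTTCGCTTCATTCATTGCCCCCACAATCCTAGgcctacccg
In the first, the overlap opens with the start codon of MT-ND4 and closes with the stop codon of MT-ND4L, with 1 base between them. MT-ATP6 and MT-CO3 share 1 base.

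In whole-cell RNA the 13 mRNAs gave 1.92%, 2.28% and 2.65% of all counts in WT-res and 2.04%, 1.98% and 1.96% in ΔRS-res, in the order of replicates 1 to 3. They made up at least 99.5% of the counts of the 37 genes in each library. Levels between genes were compared as CPM per kilobase of transcript, averaged over the 6 whole-cell libraries. The catalytic and core subunits of cytochrome c oxidase, complex IV, led in each of them: MT-CO1 stood at 4583 ± 832 CPM per kilobase (SD, n = 6), MT-CO3 at 3784 ± 412 and MT-CO2 at 3082 ± 547. This order of the 3 oxidase subunits was the same in all 6 libraries, although the ranges of neighbouring genes over the libraries overlapped.

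The ATP synthase subunit gene MT-ATP6 (1874 ± 316 CPM per kilobase) and the complex I subunit gene MT-ND4 (1620 ± 268) held ranks 4 and 5 in each whole-cell library, in either order. MT-ATP8, the other ATP synthase gene, followed at 1321 ± 218. MT-ND1 (1046 ± 142), the complex III gene MT-CYB (1042 ± 168), MT-ND3 (1027 ± 81.4) and MT-ND2 (926 ± 150) differed by less than the spread between libraries. The 3 lowest complex I genes kept their ranks in all 6 whole-cell libraries: MT-ND5 at 622 ± 116, MT-ND4L at 529 ± 90.7 and MT-ND6 at 143 ± 28.9 CPM per kilobase. The highest and the lowest mRNA differed 20.9-fold to 44.7-fold within a whole-cell library. MT-ND4 and MT-ND4L, which share 1 bicistronic RNA, differed in counts by 13.5-fold to 15.0-fold in whole-cell libraries, with MT-ND4 the longer gene (1378 against 297 bases). Per kilobase they still stood apart, at 1620 against 529 CPM, although they share that RNA. The rank per length of a short gene is therefore uncertain, and the reason for this gap was not tested.

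**Figure D1:**
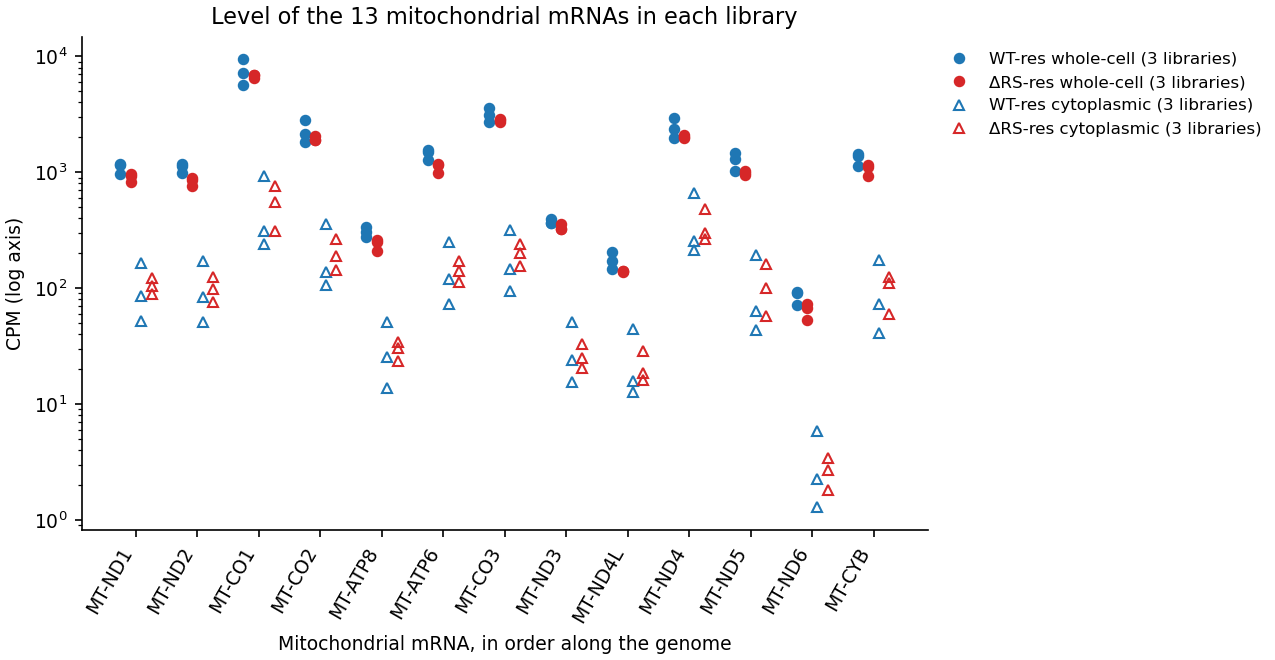
Level of each of the 13 mitochondrial mRNAs in the 12 libraries, in CPM on a log axis, in order along the genome. Filled circles are whole-cell and open triangles cytoplasmic libraries (3 per line and fraction, 1 point each). For every gene each whole-cell point lies above each cytoplasmic point, and the cytoplasmic points are spread more widely than the whole-cell points.

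The cytoplasmic libraries held far less of every mitochondrial mRNA. Their share of all counts was 0.327%, 0.129% and 0.0919% in WT-res and 0.185%, 0.129% and 0.248% in ΔRS-res. In WT-res, the summed mRNA level was 18410, 22362 and 26394 CPM in whole-cell replicates 1 to 3 and 3367, 1342 and 960 CPM in the matching cytoplasmic replicates. In ΔRS-res it was 19672, 18840 and 19077 CPM in whole-cell and 1870, 1330 and 2549 CPM in cytoplasmic RNA. No cytoplasmic library came near a whole-cell library. The cytoplasmic level was thus 18.3%, 6.00% and 3.64% of the whole-cell level in the WT-res pairs, the last of which rests on the library that went against its label, and 9.51%, 7.06% and 13.4% in the ΔRS-res pairs. A level here is a share of a library. Between the lines, less mitochondrial RNA per cell, fewer mitochondrial genomes and more of all other RNA cannot be told apart in bulk samples. The cytoplasmic RNA came from a supernatant after centrifugation, and whether mitochondria left it with the pellets was not tested.

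The amount left in the cytoplasmic fraction varied between libraries of 1 line much more than the whole-cell amount did. The summed mRNA level of the WT-res cytoplasmic libraries spanned 960 to 3367 CPM, a range that contains all 3 ΔRS-res cytoplasmic libraries. Replicate 1 of WT-res cytoplasmic RNA, the highest, also held the most of 2 of the 3 nuclear-retained RNAs listed, with NEAT1 at 129 CPM against 74.7 to 105 CPM in the other cytoplasmic libraries and MALAT1 at 1783 CPM against 993 to 1519 CPM. The third, KCNQ1OT1, stood there at 7.93 CPM, within the 6.21 to 8.93 CPM of the others. The part of this in the mitochondrial values was not tested. Over the same 6 libraries the summed level of 30 mRNAs translated at the endoplasmic reticulum (ER) spanned only 1688 to 1965 CPM.

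Each of the 13 mRNAs passed the test in both lines. In a fit over all 12 libraries with edgeR's quasi-likelihood test, 25 of the 27 mitochondrial genes that passed the count minimum were lower in cytoplasmic than in whole-cell RNA of WT-res at a Benjamini-Hochberg adjusted p under 0.05, beside 24.8% of all 26687 genes called lower and 16.9% called higher. In ΔRS-res 27 of 27 were lower, beside 24.3% of all genes called lower and 16.6% called higher. Both counts include all 13 mRNAs and 12 tRNA genes. Some of the tRNA genes reached the count minimum through whole-cell RNA, so their calls are no support. The median log2 fold change of the mRNAs was -3.50 in WT-res and -3.21 in ΔRS-res, and that of all genes -0.05 and -0.06. All 13 were called lower in both lines also under each alternative processing and without each library in turn. Without the whole-cell library that went against its label, the WT-res median was -3.40 with 25 of 27 called.

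MT-ND4, a membrane-arm subunit of complex I, was lowered least. It stood at 1986, 2365 and 2925 CPM in WT-res whole-cell RNA and at 660, 254 and 215 CPM in WT-res cytoplasmic RNA. In ΔRS-res it stood at 2028, 1977 and 2112 CPM against 299, 267 and 483 CPM. The fractions did not overlap for MT-ND4 or any of the other mRNAs, beside 21% of all genes tested that were lower in each cytoplasmic than in each whole-cell library. The log2 fold change of MT-ND4 was -2.69 (SE 0.38, adjusted p = 0.00017) in WT-res and -2.54 (SE 0.38, adjusted p = 0.000203) in ΔRS-res.

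MT-ND6, another membrane-arm subunit of complex I and the light-strand mRNA, was lowered most. It stood at 91.4, 93.5 and 72.0 CPM in WT-res whole-cell RNA and at 5.89, 2.27 and 1.29 CPM in WT-res cytoplasmic RNA. In ΔRS-res it stood at 72.6, 67.2 and 53.5 CPM against 2.68, 1.82 and 3.40 CPM. The gap between the fractions was wider than for any other mRNA. Its log2 fold change was -4.79 (SE 0.47, adjusted p = 7.07e-06) in WT-res and -4.61 (SE 0.46, adjusted p = 8.45e-06) in ΔRS-res. The strand setting of the counting is not given in the sources used here, so reads of MT-ND6 and of heavy-strand RNA antisense to it cannot be told apart.

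Among the oxidase subunits, MT-CO1 stood at 5615, 7181 and 9442 CPM in WT-res whole-cell RNA and at 930, 313 and 241 CPM in WT-res cytoplasmic RNA. In ΔRS-res it stood at 6840, 6444 and 6885 CPM against 548, 310 and 757 CPM. The whole-cell library labelled WT-res replicate 3 held the highest value of all. The log2 fold change was -3.91 in WT-res and -3.64 in ΔRS-res for MT-CO1, -4.08 and -3.82 for MT-CO3, and -3.50 and -3.30 for MT-CO2. The ATP synthase genes were lowered less, with -3.30 and -2.97 for MT-ATP6 and -3.34 and -3.03 for MT-ATP8. MT-CYB of complex III changed by -3.78 and -3.43. The remaining complex I genes lay between MT-ND4L, at -2.84 and -2.73, and MT-ND3, at -3.63 and -3.68, or MT-ND5, at -3.67 and -3.21. MT-ND1 (-3.45 and -3.10) and MT-ND2 (-3.42 and -3.08) stood in the middle of the 13.

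Among 10424 genes with a mean count of at least 1000, the mRNAs sat at the far low end. By the mean of the fitted values of both lines, 102 genes outside the mitochondrial genome were lower in the cytoplasmic fraction than MT-ND4. Of these, 21 were lower than the median mitochondrial mRNA and only 3 were lower than MT-ND6. The 102 include the nuclear copies MTND2P28 and MTATP6P1, which share reads with mitochondrial genes. The 5 lowest protein-coding genes among the 102 encode extracellular matrix and ER proteins: COL4A1 (-4.16), COL2A1 (-4.13), COL4A2 (-4.09), the ER chaperone gene HSPA5 (-3.67) and LAMB2 (-3.55). Of the list of 30 ER-translated mRNAs, 29 were lower in each line, with a median of -2.30 in WT-res and -2.34 in ΔRS-res. Of all genes, 24.8% were called lower in WT-res and 24.3% in ΔRS-res.

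The nuclear genes for the same respiratory complexes did not share this position. Of 71 nuclear-encoded respiratory subunit genes, 3 were lower and 11 higher in cytoplasmic RNA of WT-res, and 4 were lower and 16 higher in ΔRS-res. Their median log2 fold change was 0.10 in WT-res and 0.16 in ΔRS-res. Their summed level stood at 8545 to 10090 CPM in whole-cell and 9400 to 11480 CPM in cytoplasmic libraries. Of 46 nuclear genes for the expression and maintenance of mitochondrial DNA, 1 was lower and 12 were higher in WT-res, and 1 was lower and 17 were higher in ΔRS-res. Beside these 2 lists, 24.8% of all genes were called lower and 16.9% higher in WT-res, and 24.3% and 16.6% in ΔRS-res. The nuclear-retained RNAs were lower for 2 of 3 in each line, and 3 of 4 abundant cytosolic mRNAs were higher in each line. For MALAT1 the fractions overlapped, at 1299 to 3076 CPM in whole-cell and 993 to 1783 CPM in cytoplasmic libraries. In WT-res replicate 1 it was higher in cytoplasmic than in whole-cell RNA (1783 against 1616 CPM). How much nuclear RNA the cytoplasmic fraction held was not tested.

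**Figure D2:**
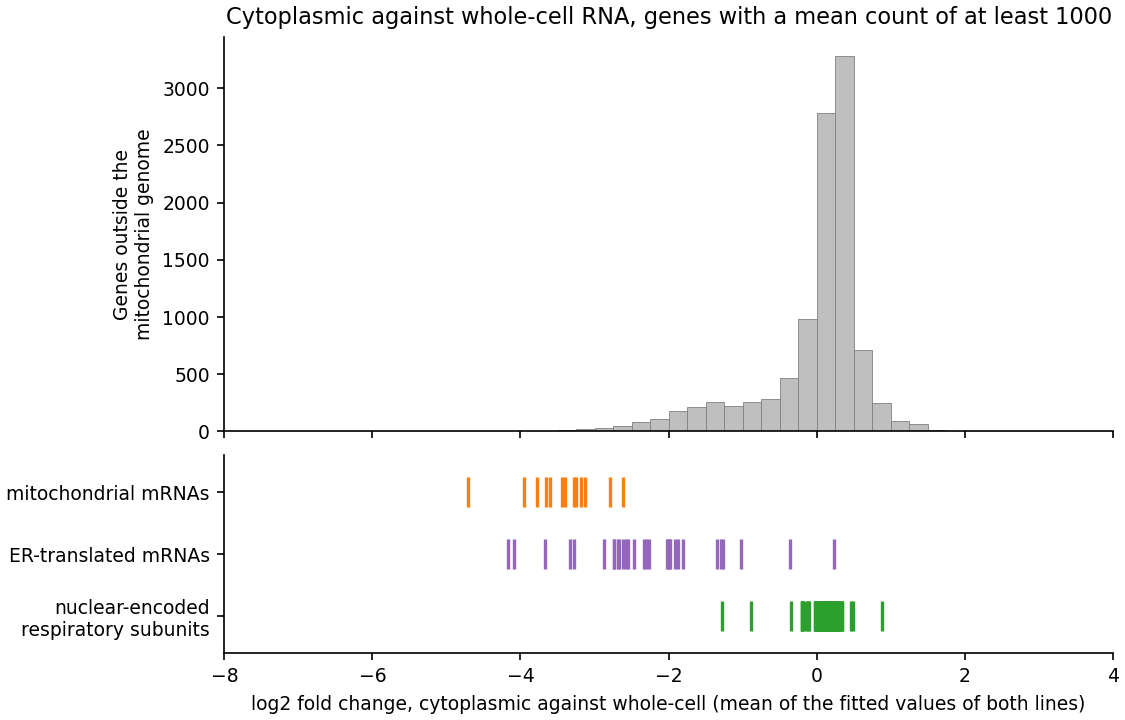
Fitted log2 fold change of cytoplasmic against whole-cell RNA, as the mean of both lines, for genes with a mean count of at least 1000. The histogram shows genes outside the mitochondrial genome (1 gene lies beyond the right end of the axis), and the ticks below mark the 13 mitochondrial mRNAs, the ER-translated mRNAs and the nuclear-encoded respiratory subunit mRNAs. The mitochondrial ticks, from the lowest at MT-ND6 to the highest at MT-ND4, lie left of nearly all genes, while the respiratory subunits lie near 0.

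The mRNAs were not lowered in equal measure, and the genes at both ends of their order held their places in every pair. Each of the 6 pairs of a cytoplasmic and a whole-cell library with the same line and number gave a log2 ratio per gene. Deviations of the paired libraries correlated at -0.18 for WT-res replicate 1 and at 0.49 to 0.80 for the other pairs. The WT-res pair of replicate 3 holds the whole-cell library that went against its label. MT-ND4 had the smallest loss of the 13 mRNAs in 6 of 6 pairs, with log2 ratios of -1.59, -3.22 and -3.77 in WT-res and -2.76, -2.89 and -2.13 in ΔRS-res. MT-ND4L, on the same bicistronic RNA, had the second smallest in 6 of 6 pairs. MT-ATP6 held rank 3 or 4. MT-ND6 had the largest loss in 6 of 6 pairs, with -3.96, -5.37 and -5.81 in WT-res and -4.76, -5.21 and -3.98 in ΔRS-res. MT-CO3 held ranks 10 to 12 and MT-CO1 ranks 9 to 12. Between the ends the order varied, with MT-ND5 at ranks 4 to 10, MT-CO2 at 3 to 9, MT-ND1 at 4 to 8 and MT-ND3 at 7 to 11. The pairs differed widely too: MT-ND4 in the WT-res pair of replicate 3 lost more than MT-CO3 in that of replicate 1 (-3.77 against -3.10).

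The same is seen in the makeup of the mitochondrial mRNA pool, where each gene is a percent of the summed counts of the 13 mRNAs and the total amount drops out. MT-ND4 made up 10.3% to 11.1% of the pool in the 6 whole-cell libraries and 16.0% to 22.4% in the 6 cytoplasmic libraries. Its mean share rose from 10.7% ± 0.316 to 19.3% ± 2.06 (SD, n = 6), and the ranges did not overlap. MT-ND4L went from 0.695% to 0.801% of the pool up to 0.993% to 1.33%, again without overlap. MT-ATP6 was higher in 6 of 6 pairs, but its range of 5.21% to 6.97% in whole-cell libraries overlapped with 6.72% to 8.90% in cytoplasmic libraries. MT-ATP8 was likewise higher in 6 of 6 pairs with overlapping ranges.

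Of the genes that lost share, MT-CO1 made up 30.5% to 36.1% of the whole-cell pool and 23.3% to 29.7% of the cytoplasmic pool. MT-CO3 fell from 13.5% to 14.8% down to 9.37% to 11.7%. MT-ND6 went from 0.273% to 0.497% down to 0.133% to 0.175%. All 3 were lower in 6 of 6 pairs with ranges that did not overlap. The third oxidase gene, MT-CO2, did not follow the other two: its share was higher in 5 of 6 pairs, at a mean of 10.1% ± 0.547 in whole-cell and 10.5% ± 0.334 in cytoplasmic libraries. MT-ND1 and MT-ND2 were higher in 5 of 6 pairs, MT-ND5 in 3, and MT-ND3 and MT-CYB in 2.

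The size of the shift differed little between pairs. The mean log2 ratio of the cytoplasmic to the whole-cell share was 0.84 ± 0.13 (SD over 6 pairs) for MT-ND4, 0.65 ± 0.09 for MT-ND4L, -0.37 ± 0.17 for MT-CO1, -0.48 ± 0.14 for MT-CO3 and -1.28 ± 0.19 for MT-ND6. Its range in the 6 pairs was 0.64 to 1.01 for MT-ND4 and -1.51 to -1.03 for MT-ND6. Per length, MT-ND4 ranked 4 or 5 among the mRNAs in whole-cell libraries and 2 to 4 in cytoplasmic libraries, at 264 ± 126 CPM per kilobase. MT-CO2 held ranks 1 to 3 there and MT-CO1 ranks 1 and 2, so that MT-CO2 was the highest mRNA per length in 1 cytoplasmic library, ΔRS-res replicate 2. Across the 13 mRNAs the mean fraction change had a Pearson correlation of 0.06 with length and -0.05 with GC content. It was 0.27 with the whole-cell level per length and -0.30 with the start position. The Spearman correlations were -0.13, -0.21, -0.03 and -0.17 in the same order. These are descriptions over 13 genes of the same libraries.

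The comparison of the lines asked whether the level of these RNAs differs between ΔRS-res and WT-res cells. Each form of PGC-1α was carried by 1 line only, and the lines also differ at genes such as DDX19B and SDHA. Whether a difference between them comes from the missing RS domain or from another difference between the lines was therefore not tested. In whole-cell RNA the fitted value of each of the 13 mRNAs was lower in ΔRS-res than in WT-res, but none passed the test. With edgeR, 0 of 28 mitochondrial genes tested were called at an adjusted p under 0.05, beside 0% of all 26794 genes. At an unadjusted p under 0.05, 8 of 28 passed, all of them mRNAs, beside 12.6% of all genes. The median log2 fold change of the mRNAs was -0.33, against 0.00 for all genes. At the study's own cut-off, which takes unadjusted p-values under 0.05 and log2 fold changes beyond 0.5 in either direction, no mitochondrial gene passed, beside 6.36% of all genes.

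MT-ND2, a membrane-arm subunit of complex I, stood at 980, 1168 and 1124 CPM in WT-res and at 884, 864 and 767 CPM in ΔRS-res. MT-ATP6, the proton channel subunit of ATP synthase, stood at 1284, 1546 and 1508 CPM in WT-res and at 1177, 1150 and 994 CPM in ΔRS-res. For both genes the 3 libraries of 1 line lay above the 3 of the other. The log2 fold change was -0.39 (SE 0.10, adjusted p = 0.211) for MT-ND2, -0.40 (SE 0.10, adjusted p = 0.213) for MT-ATP6 and -0.42 (SE 0.15, adjusted p = 0.302) for MT-ND6. The lines did not overlap for 6 of 13 mRNAs: MT-ND2, MT-ND3, MT-ND4L, MT-ND5, MT-ATP6 and MT-ATP8, beside 19% of all genes tested. Without the library labelled WT-res replicate 3 they did not overlap for 7, with MT-ND6 added, beside 42.5% of all genes. The smallest fitted differences were those of MT-CO1 (-0.15), MT-CO3 (-0.17), MT-ND3 (-0.17) and MT-CO2 (-0.22).

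Replicates with the same number deviated together in whole-cell RNA, and a fit with the replicate number as a block called 2 mitochondrial genes lower in ΔRS-res, MT-ND6 (-0.42, adjusted p = 0.0232) and MT-ND2 (-0.39, adjusted p = 0.0423), beside 7.95% of all genes. DESeq2 called MT-ND2 (-0.38, adjusted p = 0.0344) and MT-ATP6 (-0.38, adjusted p = 0.04997), beside 3.93% of all genes. When the whole-cell library labelled WT-res replicate 3 was left out, 0 of 28 were called by edgeR, beside 2.06% of all genes. The median of the mRNAs was then -0.24, and MT-CO1 turned to 0.05. The block without that library called 4, MT-ND6 (-0.42, adjusted p = 0.00652), MT-ND2 (-0.31, adjusted p = 0.0459), MT-ND3 (-0.19, adjusted p = 0.0233) and MT-ND4L (-0.20, adjusted p = 0.047), beside 16.4% of all genes. In that fit ΔRS-res replicate 3 has no partner and adds nothing to the line difference, so these calls rest on 2 pairs of libraries. Taken over all 28 mitochondrial genes tested, the share called was below that of all genes in both block fits and above it with DESeq2. Every call was of an mRNA: 2 of 13 with the block, 4 of 13 with the block without that library and 2 of 13 with DESeq2. Among the mRNAs alone the share was above that of all genes in each of these fits. The 13 mRNAs are cut from shared transcripts, so their calls are not separate results. They also averaged at least 4302 counts over the 12 libraries, while all genes tested go down to a mean count just above 2, so these shares are not like for like.

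In cytoplasmic RNA no mRNA difference between the lines was larger than the spread between libraries. With edgeR, 0 of 22 mitochondrial genes tested were called, beside 1.51% of all 25946 genes. DESeq2 also called 0. At an unadjusted p under 0.05, 2 of 22 passed, the 2 ribosomal RNAs, and no mRNA, beside 10.8% of all genes. The same 2 passed the study's threshold, beside 5.67% of all genes. The fitted differences of the mRNAs ran from -0.23 for MT-ND6 to 0.14 for MT-CO1, with a median of -0.03, and their standard errors from 0.35 to 0.55. The lines overlapped for 13 of 13 mRNAs, while they did not overlap for 17.4% of all genes tested.

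This cytoplasmic median depended on single libraries. Without WT-res replicate 1 it was 0.57, with no mRNA negative and 5 at an unadjusted p under 0.05 (7.99% of all genes), and without WT-res replicate 3 it was -0.35. The study kept 4 cytoplasmic libraries, WT-res replicates 1 and 3 and ΔRS-res replicates 1 and 2. With these the median was -0.43, with 13 of 13 mRNAs negative and 0 of 20 mitochondrial genes called, beside 22.1% of all genes. No test found a fraction difference that differed between the lines: for the interaction of line and fraction, edgeR and DESeq2 each called 0 of 27 mitochondrial genes, beside 0.00375% of all genes by edgeR. At an unadjusted p under 0.05, 0 passed with edgeR, beside 5.52% of all genes, and 2 with DESeq2, the 2 ribosomal RNAs, beside 5.07%. Over the 13 mRNAs the interaction ran from -0.05 for MT-ND3 to 0.46 for MT-ND5 on the log2 scale, with a median of 0.26. Without WT-res cytoplasmic replicate 1 its median was 0.93, with 12 mRNAs at an unadjusted p under 0.05 (4.12% of all genes) and 0 called.

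In the makeup of the pool in whole-cell RNA the lines did not overlap for MT-ND5, whose share of the pool (mean ± SD of 3 libraries) was 5.65% ± 0.118 in WT-res against 5.15% ± 0.136 in ΔRS-res, and for MT-ND4L, at 0.781% ± 0.0199 against 0.728% ± 0.0297. Without the library labelled WT-res replicate 3 they did not overlap for 9 of 13 mRNAs, of which 1 had a higher and 8 a lower share in ΔRS-res. In CPM, 42.5% of all genes did not overlap in the same split. The shares are parts of the same total, so a higher share of MT-CO1 lowers the others, and these 9 are not separate results. MT-CO1, the higher one, then made up 30.5% and 32.1% of the pool in WT-res against 34.2% to 36.1% in ΔRS-res. MT-ND2, among the lower ones, made up 5.33% and 5.22% against 4.02% to 4.59%. The others that were lower were MT-ND1, MT-ND4L, MT-ND5, MT-ND6, MT-ATP6, MT-ATP8 and MT-CYB. In cytoplasmic RNA they overlapped for all 13. MT-ND4 made up 20.3% ± 1.83 of the cytoplasmic pool in WT-res and 18.4% ± 2.10 in ΔRS-res.

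MT-RNR1 and MT-RNR2, the small and large ribosomal RNAs of mitochondria, were targets of the depletion, and their counts are what it left. MT-RNR1 had 895, 122 and 1178 counts in WT-res whole-cell RNA, 427, 32 and 7 in WT-res cytoplasmic RNA, 65, 4714 and 761 in ΔRS-res whole-cell RNA and 35, 7 and 11 in ΔRS-res cytoplasmic RNA. The largest and smallest whole-cell values were thus both in ΔRS-res. MT-RNR2 moved with it, with a ratio of MT-RNR1 to MT-RNR2 of 0.538 to 1.57 in the 12 libraries. Both together gave 0.052 to 4.48 counts per 1000 mitochondrial mRNA counts. Between the lines the log2 fold changes were 1.24 and 1.22 in whole-cell RNA (adjusted p = 0.776 and 0.777) and -3.44 and -3.53 in cytoplasmic RNA (adjusted p = 0.458 and 0.446). Between fractions they were called in ΔRS-res (-6.82 and -6.44) and not in WT-res (-2.11 and -1.65). The calls in ΔRS-res were lost without its whole-cell replicate 2 or its cytoplasmic replicate 2, that of MT-RNR2 also without cytoplasmic replicate 3, and both were called in WT-res without its cytoplasmic replicate 1. The depletion and the cells cannot be told apart in these 2 genes.

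The 22 tRNA genes are 59 to 75 bases long, shorter than the 100-base reads and than the inserts of these libraries, and bead clean-ups removed short fragments. They gave 533 to 699 counts in a whole-cell library and 26 to 66 in a cytoplasmic library. Of the 22, MT-TD and MT-TG had no count in any library and 8, these included, had fewer than 10 counts over the 12 libraries. The 3 genes with most counts held 61.4% of all tRNA counts. They are shown with MT-TD, a gene without counts, on GRCh38 with the anticodon in capitals.
MT-TS1 (chrM:7446-7514, minus strand): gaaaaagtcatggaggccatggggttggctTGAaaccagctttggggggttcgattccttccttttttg
MT-TF (chrM:577-647, plus strand): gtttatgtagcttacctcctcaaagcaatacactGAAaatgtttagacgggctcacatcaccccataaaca
MT-TV (chrM:1602-1670, plus strand): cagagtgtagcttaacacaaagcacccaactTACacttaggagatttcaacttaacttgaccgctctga
MT-TD (chrM:7518-7585, plus strand): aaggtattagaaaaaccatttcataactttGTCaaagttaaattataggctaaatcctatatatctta

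MT-TF and MT-TV lie on either side of MT-RNR1, and MT-TS1 lies directly after the end of MT-CO1 on the other strand, 3 bases before MT-TD. MT-TS1 had 135 to 165 counts in whole-cell and 6 to 31 in cytoplasmic libraries. MT-TF had 103 to 119 and 2 to 6, and MT-TV 78 to 137 and 2 to 9. The fractions did not overlap for any of the 3. The 8 tRNA genes of the light strand held 52.4% of the tRNA counts in whole-cell and 60.3% in cytoplasmic libraries. As for MT-ND6, reads antisense to these 8 genes cannot be told apart from their own.

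In the fit over 12 libraries 12 tRNA genes passed the count minimum, and each was called lower in cytoplasmic RNA of both lines. Of these, MT-TQ, MT-TN, MT-TS2, MT-TY and MT-TC averaged under 2 counts in cytoplasmic libraries and reached the minimum through whole-cell RNA, so the number called is no support for a fraction difference of tRNAs. The log2 fold change was -3.15 (SE 0.46) in WT-res and -2.88 (SE 0.45) in ΔRS-res for MT-TS1. It was -4.78 (SE 0.31) and -4.57 (SE 0.30) for MT-TF, and -4.76 (SE 0.39) and -3.85 (SE 0.36) for MT-TV. For the other 9 (MT-TA, MT-TC, MT-TE, MT-TL1, MT-TM, MT-TN, MT-TQ, MT-TS2 and MT-TY) it ran from -6.17 to -3.30 in WT-res and from -4.42 to -2.42 in ΔRS-res. Between the lines, 13 tRNA genes, these 12 and MT-TH, were tested in whole-cell RNA and none was called by edgeR.

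**Figure D3:**
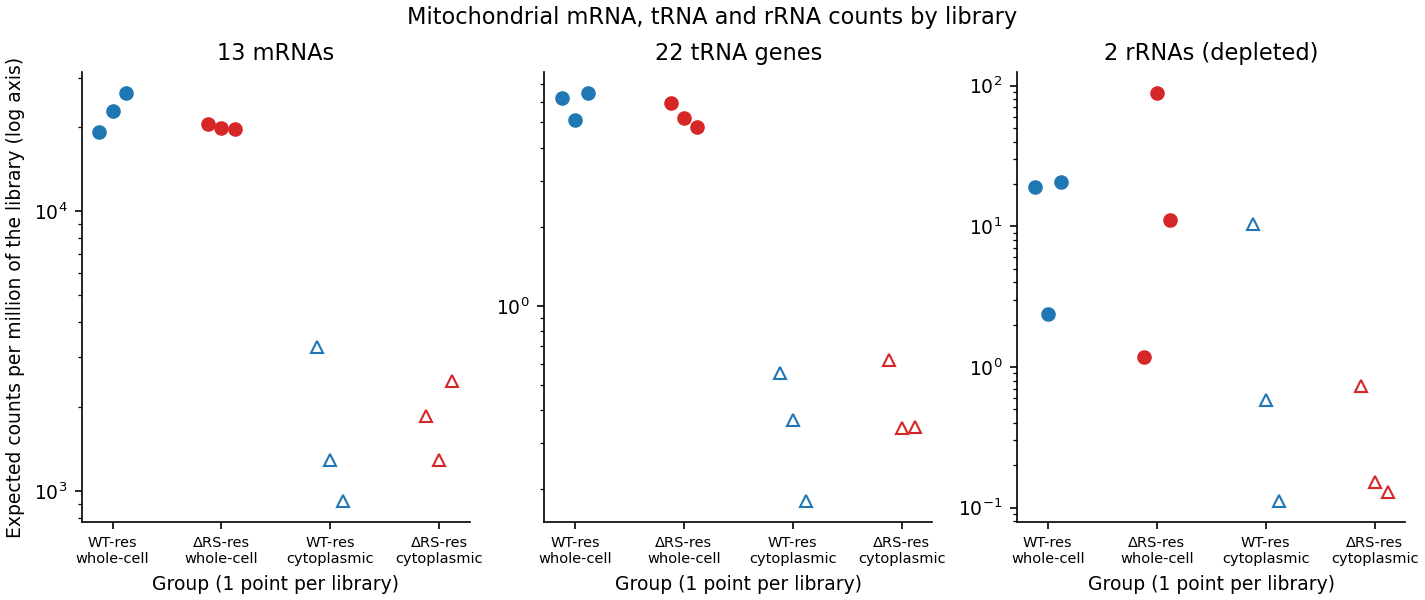
Expected counts of the 13 mRNAs, the 22 tRNA genes and the 2 depleted rRNAs relative to the total count of the library, on log axes that differ between panels, for 4 groups of 3 libraries (1 point each). mRNAs and tRNAs separate the fractions without overlap, and the rRNAs scatter widely within each group.

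Nuclear genes that read, process and copy mitochondrial DNA give the setting of the line comparison. Of 46 such genes, 0 were called between the lines in whole-cell RNA by edgeR, and 2 in cytoplasmic RNA. These counts depended on the fit. In whole-cell RNA the block called 6, beside the 7.95% of all genes given above, and the block without the library labelled WT-res replicate 3 called 12, beside 16.4%. With the study's 4 cytoplasmic libraries 24 were called, 17 higher and 7 lower in ΔRS-res, beside 22.1%. FASTKD2, an RNA-binding protein of mitochondrial RNA granules that supports the large ribosomal RNA, stood at 71.9, 84.1 and 77.1 CPM in WT-res cytoplasmic RNA and at 57.5, 58.5 and 53.8 CPM in ΔRS-res. Its log2 fold change was -0.45 (SE 0.08, adjusted p = 0.048) in cytoplasmic RNA and -0.53 (SE 0.11, adjusted p = 0.211) in whole-cell RNA, where the block called it (adjusted p = 0.0245). FASTKD3, of the same protein family, stood at 19.7, 24.5 and 20.7 CPM in WT-res and at 38.5, 41.7 and 34.0 CPM in ΔRS-res cytoplasmic RNA. It was higher in ΔRS-res by 0.82 on the log2 scale (SE 0.12, adjusted p = 0.0154). In whole-cell RNA the library labelled WT-res replicate 3 held 33.6 CPM of FASTKD3, above both other WT-res libraries (19.2 and 21.9 CPM) and the ΔRS-res libraries (29.6 to 31.7 CPM), and without it the log2 fold change there was 0.57 (adjusted p = 0.0252).

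With all 6 libraries of a fraction, edgeR without the block called none of the core transcription and maintenance genes. POLRMT, TFAM, TFB2M and SUPV3L1 were each called with the block or with the study's 4 cytoplasmic libraries. In whole-cell RNA the log2 fold change was 0.28 for POLRMT, the mitochondrial RNA polymerase (adjusted p = 0.244, with the block 0.0397), and -0.23 for TFAM, which packages and activates mitochondrial DNA (adjusted p = 0.486, with the block 0.043). It was -0.09 for the transcription factor TFB2M, 0.21 for the helicase TWNK and 0.09 for the DNA polymerase POLG. Of the genes that stabilise, tail or degrade mitochondrial mRNA, LRPPRC (-0.15), SLIRP (-0.14), MTPAP (-0.07), SUPV3L1 (0.05) and PNPT1 (-0.17) were not called by edgeR with or without the block. In cytoplasmic RNA with all 6 libraries TFAM and POLRMT both stood at 0.08 and LRPPRC at 0.13, none of them called. Of the 71 nuclear respiratory subunit genes, 0 were called in whole-cell RNA, with a median of 0.07, and 1 was higher in ΔRS-res cytoplasmic RNA, with a median of 0.14. The block without the library labelled WT-res replicate 3 called 20 in whole-cell RNA, 15 higher and 5 lower, and the study's 4 cytoplasmic libraries called 22, 20 higher and 2 lower.

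Copies of mitochondrial DNA in the nuclear genome share reads with their source. The table held 404 such copies, and 401 had a mean count under 50. The 2 with a mean count of at least 1000 lie close together on chromosome 1 of GRCh38. MTATP6P1 (chr1:633696-634376, plus strand) differs from MT-ATP6 at 10 of 681 aligned bases and held 5.89% to 7.13% of the MT-ATP6 count in the 12 libraries. MTND2P28 (chr1:629640-630683, plus strand) differs from MT-ND2 at 17 of 1042 aligned bases and held 6.16% to 7.04% of the MT-ND2 count. Both fell with their source in the cytoplasmic fraction, MTATP6P1 from 7177 to 11309 counts down to 665 to 1477. How reads were divided between source and copy sets the counts of these 2 mRNAs and of the copies, which are uncertain to that extent.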

How the data were processed

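RNA-seq of 12 libraries was analysed from the deposited RSEM expected counts per transcript, which the authors obtained with Trim Galore, STAR and RSEM on GRCh38 (their versions and the strand setting are not given in the sources used here). Counts were rounded and summed per gene, and each mitochondrial gene has 1 transcript. Genes with a mean count above 2 were tested with edgeR 4.0.16 (R 4.3.3; TMM, quasi-likelihood test, Benjamini-Hochberg adjustment over all genes, threshold 0.05), within a fraction (6 libraries) or over all 12. DESeq2 1.42.0 (Wald test), other scalings and filters, left-out libraries and a replicate block were alternatives. CPM used TMM effective library sizes. Deviations of same-numbered libraries correlated at 0.58 to 0.68 in whole-cell and -0.44 to 0.62 in cytoplasmic RNA over 14922 genes, so the number was taken to pair the lines only in whole-cell RNA. Lists were described by counts and medians without a test, and intervals beyond the standard errors were not computed. The mRNAs, rRNAs and passing tRNA genes were named in every comparison, and other genes by fixed lists and count minimums. The members and lists were chosen with earlier results of these data known. The fits were tested on simulated data.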

Additional observations from a re-analysis of the deposited data

How the results depend on the processing

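In the fraction comparisons, each of the 13 mRNAs kept its direction and its call in both lines under the other scalings, filters, tests and library choices and under the replicate block. Leaving out 1 library at a time moved the median of the mRNAs from -4.22 to -3.21 in WT-res and from -3.56 to -2.99 in ΔRS-res, and the study's 4 cytoplasmic libraries gave -3.56 in ΔRS-res. The largest move in WT-res came without its cytoplasmic replicate 1. With protein-coding genes as the total, the mean share was 2.23% for mRNAs in ΔRS-res whole-cell RNA, and 0.000667% and 0.000594% for tRNAs in WT-res and ΔRS-res whole-cell RNA. With each overlapping pair summed as 1 unit, 2 units in place of 4 genes had a higher cytoplasmic share in every pair, since MT-ATP8 with MT-ATP6 and MT-ND4L with MT-ND4 then count once.

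For the lines in whole-cell RNA, 2 mitochondrial genes were called with DESeq2, 2 with the replicate block and 4 with the block and without the whole-cell library that went against its label (chosen after seeing the data), in place of 0. The last of these fits rests on 2 pairs of libraries. Leaving out 1 library at a time moved the log2 fold change from -0.31 to 0.053 for MT-CO1, from -1.05 to 1.81 for MT-RNR1 and from -1.38 to 1.78 for MT-RNR2. The block gave -0.14 for MT-RNR1 and -0.34 for MT-RNR2, and, without that library, 0.047 for MT-CO1. Without it (also chosen after seeing the data) the shares of the pool did not overlap between the lines for 9 mRNAs in place of 2. The shares are parts of the same total, so these 9 are not separate results.

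In cytoplasmic RNA, 2 mitochondrial genes, the rRNAs, passed the study's threshold. Leaving out 1 library at a time turned every mRNA, with ranges of -0.22 to 0.62 for MT-ND1, -0.35 to 0.55 for MT-ND2, -0.19 to 0.96 for MT-CO1, -0.29 to 0.71 for MT-CO2, -0.37 to 0.57 for MT-ATP8, -0.36 to 0.55 for MT-ATP6 and -0.21 to 0.72 for MT-CO3. For the others the ranges were -0.51 to 0.40 for MT-ND3, -0.50 to 0.55 for MT-ND4L, -0.40 to 0.57 for MT-ND4, -0.32 to 1.00 for MT-ND5, -0.61 to 0.57 for MT-ND6 and -0.31 to 0.79 for MT-CYB. The study's 4 libraries turned MT-ND1 to -0.14, MT-CO1 to -0.43, MT-CO2 to -0.46, MT-CO3 to -0.19, MT-ND5 to -0.55 and MT-CYB to -0.32. The replicate block turned MT-ND2 to 0.10, MT-ATP8 to 0.13, MT-ATP6 to 0.10 and MT-ND4 to 0.041. Deviations of same-numbered cytoplasmic libraries of the lines correlated at 0.62 and 0.48 for replicates 2 and 3 and at -0.44 for replicate 1, so not every pair deviated together, and the block called 0 mitochondrial genes there.

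The interaction median ran from -0.05 to 0.93 when 1 library was left out. The ranges were -0.063 to 1.10 for MT-CO1, -0.09 to 0.92 for MT-CO2, -0.017 to 0.93 for MT-ATP8, -0.052 to 0.89 for MT-CO3, -0.35 to 0.57 for MT-ND3, -0.18 to 0.88 for MT-ND4L, -0.16 to 0.83 for MT-ND4 and -0.19 to 0.98 for MT-ND6. The 4 cytoplasmic libraries gave -0.30 for MT-CO1, -0.26 for MT-CO2, -0.041 for MT-CO3, -0.39 for MT-ND4L, -0.37 for MT-ND4, -0.21 for MT-ND5, -0.23 for MT-ND6 and -0.008 for MT-CYB. The block without the library that went against its label gave -0.18 for MT-CO1, -0.19 for MT-CO2, -0.081 for MT-CO3, -0.21 for MT-ND4L and -0.19 for MT-ND4. MT-ND3 became 0.004 without the filter and 0.10 with the block. The cause of these changes was not tested. With 3 passages per group and a spread this wide among cytoplasmic libraries, a difference between the lines of the size fitted in whole-cell RNA was not detectable in cytoplasmic RNA.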
